A study of Mus musculus with 12 samples.

Results

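The genes described here are the mouse integrin subunits and laminin chains, the receptors of the cell for extracellular matrix and a main class of basement membrane protein. They were taken from the deposited gene table by symbol, as protein_coding entries named Itga, Itgb, Lama, Lamb or Lamc with the number or letter of a subunit. The rule found 38 of 52550 entries, which carry 37 symbols because Itgam has 2 gene identifiers. They comprise 19 integrin alpha entries, 8 integrin beta entries and 11 laminin entries. RNA was sequenced from D2A1 and D2.OR, a pair of related mouse mammary tumor cell lines that arose in separate tumors of the D2 hyperplastic alveolar nodule series. Each line was grown directly on plastic (2D) or on a layer of growth-factor-reduced Matrigel (3D) whose medium also held Matrigel. The 4 groups (D2A1 2D, D2A1 3D, D2.OR 2D and D2.OR 3D) had 3 libraries each, and every library came from pooled culture wells. Each group rests on 1 cell line, so a difference between D2.OR and D2A1 compares these lines, not dormant with proliferating tumors in general. The labels give no transgene, drug or other treatment for any group. Cells in 3D were freed from the Matrigel with a cold recovery solution before RNA extraction, so the culture and this handling cannot be told apart. For seeding, the RNA methods of the study point to the cell culture section, which gives DMEM high glucose for standard 2D culture, while the Matrigel assay is described with its 2D cells in the 3D medium. A difference of medium between the 2D and 3D libraries therefore cannot be told apart from the culture either.

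An integrin is a pair of 1 alpha and 1 beta subunit, and the alpha subunit largely sets which matrix protein the pair binds. Integrins with the alpha3, alpha6 or alpha7 subunit bind laminins, those with alpha1, alpha2, alpha10 or alpha11 bind collagens, and those with alpha5, alpha8, alphav or alphaIIb bind the RGD sequence of fibronectin, vitronectin and related proteins. A laminin is a trimer of an alpha, a beta and a gamma chain, and the trimers are named after their chains. Matrigel is a basement membrane extract of a mouse sarcoma and is itself rich in laminin protein, which RNA sequencing does not measure.

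The stretches before the transcription starts of 4 members are shown first, because these members stand out in the results below. The expression results do not use the stretches. Itgb1 was the most abundant member in every group, Itga11 had the largest fitted fold change between the lines in both cultures, and Itga1 and Lamb3 were the members that passed a test between the cultures. Each line gives the 250 bases before the RefSeq start (GRCm38.p6), 5′ to 3′ on the strand of the gene. Itgb1 is at chr8:128685404-128685653 (plus strand), Itga11 at chr9:62677605-62677854 (plus), Itga1 at chr13:115101965-115102214 (minus) and Lamb3 at chr1:193301744-193301993 (plus), the more upstream of its 2 RefSeq starts. In the annotation of the files the Lamb3 stretch lies inside the gene, whose start is placed further upstream, and the last bases of the Itga11 stretch fall within the gene. Capitals mark an exact match, on either strand, to GGGCGG (GC box), GGAATG (M-CAT, the TEAD element) or TGANTCA (AP-1).
Itgb1: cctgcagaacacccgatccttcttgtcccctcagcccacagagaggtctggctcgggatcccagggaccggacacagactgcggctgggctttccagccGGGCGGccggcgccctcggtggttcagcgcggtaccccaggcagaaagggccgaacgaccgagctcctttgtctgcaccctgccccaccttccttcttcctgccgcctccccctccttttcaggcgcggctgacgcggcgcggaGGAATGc
Itga11: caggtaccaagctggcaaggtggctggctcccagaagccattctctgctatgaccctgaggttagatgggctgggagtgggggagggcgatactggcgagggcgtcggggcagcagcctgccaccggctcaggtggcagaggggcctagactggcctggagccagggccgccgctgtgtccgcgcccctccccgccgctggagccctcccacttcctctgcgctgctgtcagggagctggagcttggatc
Itga1: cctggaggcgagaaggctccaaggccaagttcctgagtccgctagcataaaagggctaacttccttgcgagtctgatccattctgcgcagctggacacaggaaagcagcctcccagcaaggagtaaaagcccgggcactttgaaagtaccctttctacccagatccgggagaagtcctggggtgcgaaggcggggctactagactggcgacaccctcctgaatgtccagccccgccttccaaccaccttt
Lamb3: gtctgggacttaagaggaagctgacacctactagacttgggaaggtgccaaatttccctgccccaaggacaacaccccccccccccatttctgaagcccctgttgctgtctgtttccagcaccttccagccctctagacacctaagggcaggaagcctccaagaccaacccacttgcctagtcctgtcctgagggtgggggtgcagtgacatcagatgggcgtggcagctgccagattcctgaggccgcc
The Itgb1 stretch holds a GC box and an M-CAT match, and none of the 3 motifs was found in the other stretches shown. The stretch before the other RefSeq start of Lamb3, not shown, holds an M-CAT match. RefSeq promoters were matched for 23 of the 37 symbols, 26 stretches in all. The symbols without a match included Itga6, Itga7, Itgb4, Lama3 and Lama4. A GC box was found in 9 of these 26 and in 32.7% of the 32851 promoters of the table, an M-CAT match in 3 and in 12.6%, and an AP-1 match in 1 and in 6.75%. The motifs do not overlap each other in these stretches, and a match is a description of the letters.

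The libraries held 47589611 to 73325069 expected counts. The replicate number is the batch number in the labels, and each batch was run in a lane of its own. Batch 1 stood apart. Relative to it, 6.78% of the tested genes passed the test in batch 2 and 8.08% in batch 3, while no gene passed (0 of 16823) when batches 2 and 3 were compared in the same edgeR fit. Of the 33 integrin and laminin entries tested, 10 differed from batch 1 in batch 2, 9 did in batch 3, and 0 separated batches 2 and 3. Counts are therefore given with and without batch 1. The cells are labelled as a breast cancer line, but of the epithelial markers in D2A1, Epcam and Cdh1 were at 0.28 TPM or lower and Krt8 at 2.31 or lower in all 6 libraries, while Krt18 was at 92.7 to 294. In D2.OR, Krt8 was at 227 to 1022 TPM, Cdh1 at 8.93 to 183 and Epcam at 1.54 to 5.42. Krt18 was at 125 to 666 TPM in D2.OR, which overlaps D2A1. Cldn4 was at 0.08 to 2.1 TPM and Krt14 at 0.57 to 6.02 in D2.OR, and both at 0.11 or lower in D2A1. Krt5 and Krt19 were at 0.14 TPM or lower in every library of both lines. The sum of 8 epithelial markers was 94.1 to 297 TPM in D2A1 and 423 to 1717 in D2.OR, and that of 8 mesenchymal markers was 816 to 3174 and 3417 to 7295. Krt8 and Krt18 made up most of the epithelial sum in D2.OR. Of the mesenchymal markers, Vim alone was at 733 to 3138 TPM in D2A1 and 2831 to 5313 in D2.OR. Both sums moved with the cell line, as did many of the members below, and their part in those results was not tested. TPM is a transcript abundance scaled for gene length and library size, so it allows comparison between genes, and in bulk RNA a lower value cannot be split into fewer cells expressing a gene and less RNA per cell.

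Both lines expressed the same core of integrin and laminin genes. Of the 37 symbols, 16 were at 1 TPM or more in all 12 libraries, 12 in some libraries only, and 9 were under 1 TPM in every library. The 9 symbols at 10 TPM or more in all 12 libraries were Itga3, Itga5, Itgav, Itgb1, Itgb5, Lama5, Lamb1, Lamb2 and Lamc1. They include the chains of laminin-511 and laminin-521, trimers of many epithelial and vascular basement membranes, and the subunits of integrins alpha3beta1, alpha5beta1 and alphavbeta5. Together, all members took 0.300% to 0.449% of the counts in the D2A1 libraries and 0.50% to 0.646% in the D2.OR libraries, ranges that do not overlap.

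**Figure D1:**
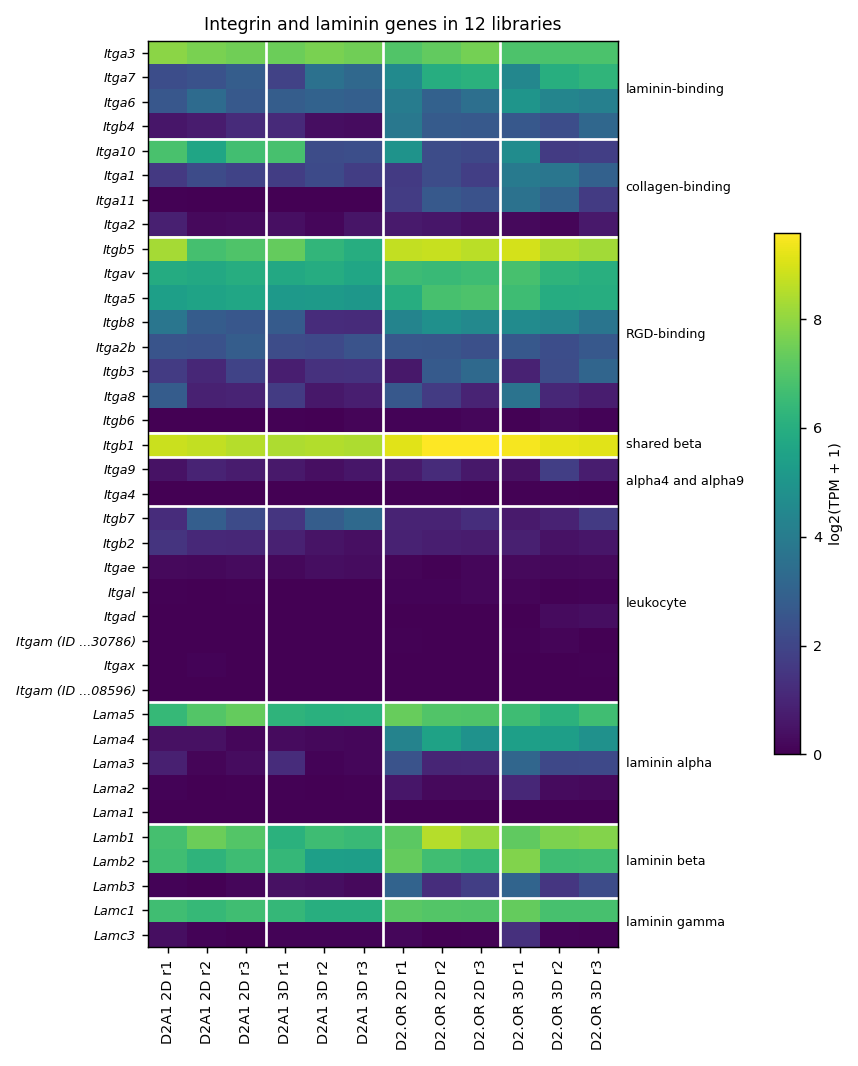
Level of 37 integrin and laminin entries (y axis, grouped by ligand or chain) in each of the 12 libraries (x axis, r1 to r3 are the replicates) as log2(TPM + 1), from dark (0) to yellow (highest). Itgb1 and Itgb5 are bright throughout, the leukocyte alpha subunits stay dark, and Itga11, Lama4 and Lamb3 are dark in D2A1 and brighter in D2.OR.

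Itgb1, which encodes the beta1 subunit shared by most matrix integrins (chr8:128685654-128733200, GRCm38), ranked highest by mean TPM in each of the 4 groups. Its level was 448, 414 and 367 TPM in D2A1 2D and 340.5, 352 and 338 TPM in D2A1 3D. It was 561, 764 and 763 TPM in D2.OR 2D and 695, 604 and 571 TPM in D2.OR 3D. All 6 D2.OR libraries were above all 6 D2A1 libraries, and in no group did its range overlap that of the next gene. The next place was held by Itga3 in D2A1 (a mean of 206 TPM in 2D and 183 in 3D) and by Itgb5 in D2.OR (a mean of 410.3 in 2D and 384 in 3D). Below them, Lamb1, Lama5, Lamc1 and Lamb2 followed in each group at means between 54.6 and 260 TPM, and most neighbours in that order had overlapping ranges.

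Among the alpha subunits, those that bind laminin held the largest share of the summed alpha-subunit TPM in both lines, apart from both batch 1 libraries of D2.OR, where RGD-binding subunits exceeded them. Laminin-binding subunits made up 46.1% to 57.3% in D2A1 2D, 46.4% to 67.1% in D2A1 3D, 44.6% to 53.6% in D2.OR 2D and 38.6% to 58.9% in D2.OR 3D. RGD-binding subunits made up 23.1% to 30.6% in D2A1 and 37.3% to 49.99% in D2.OR, without overlap between the lines. Collagen-binding subunits made up 2.07% to 11.2% in D2.OR, but 14.0% to 25.1% in D2A1 2D. In D2A1 3D they were at 29.1% in batch 1 and at 2.23% and 2.34% in the other batches. This split came from Itga10. Leukocyte alpha subunits never exceeded 0.161%.

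**Figure D2:**
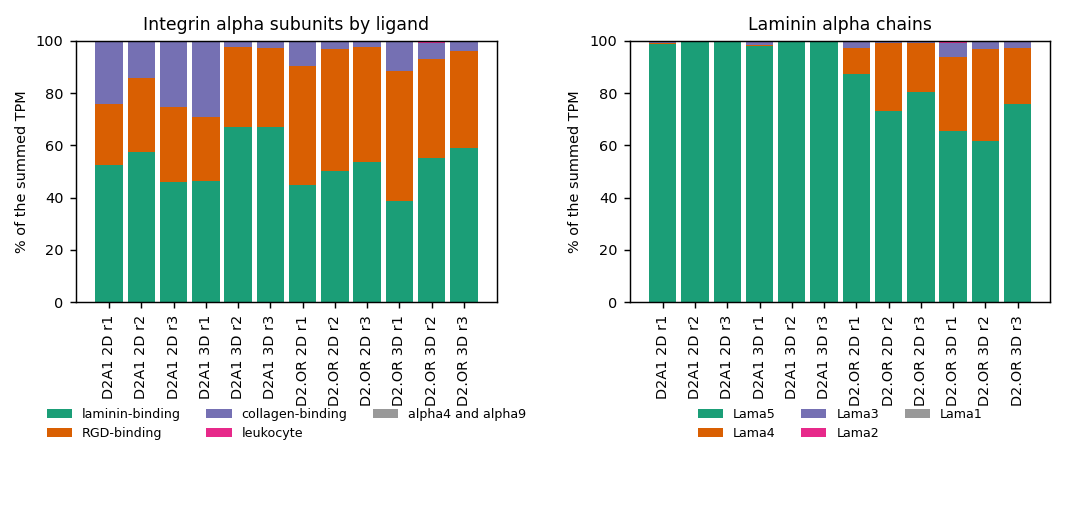
Stacked bars (y axis, % of the summed TPM within one library) of the integrin alpha subunits by ligand (left) and of the laminin alpha chains (right) in the 12 libraries (x axis). Lama5 fills 97.9% to 99.8% of the D2A1 bars and 61.5% to 87.4% of the D2.OR bars, where Lama4 takes most of the rest.

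The first comparison asked how the lines differ when both grow on plastic. In 2D, 21 of the 33 members tested passed the test between D2.OR and D2A1 (edgeR quasi-likelihood test, Benjamini-Hochberg adjusted p under 0.05 over 16823 genes, 3 libraries a group), against 49.8% of all genes. Of these, 19 were higher in D2.OR, against 25.4% of all genes, and 2 were lower, against 24.4%. The median log2 fold change of the members was 0.88, beside 0.00 over all genes. In 3D, 23 of 33 members passed, against 53.8% of all genes. There 21 were higher in D2.OR (27.7% of all genes) and 2 were lower (26.1%), with a median of 1.34 beside 0.00. The other 5 entries (Itgad, Itgax, Lama1 and both Itgam entries) had too few counts to be tested. Itga4, Itga11, Itgal, Itgb6 and Lama2 had few counts in D2A1 and entered the test only through their D2.OR libraries. Their direction, and their part in the counts and medians above, are therefore not independent of the filter. Without batch 1, 23 of 34 members passed in 2D and 23 of 34 in 3D, against 53.8% and 56.9% of all genes. Without batch 2 the 2D count was 13 of 32, against 24.9%.

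**Figure D3:**
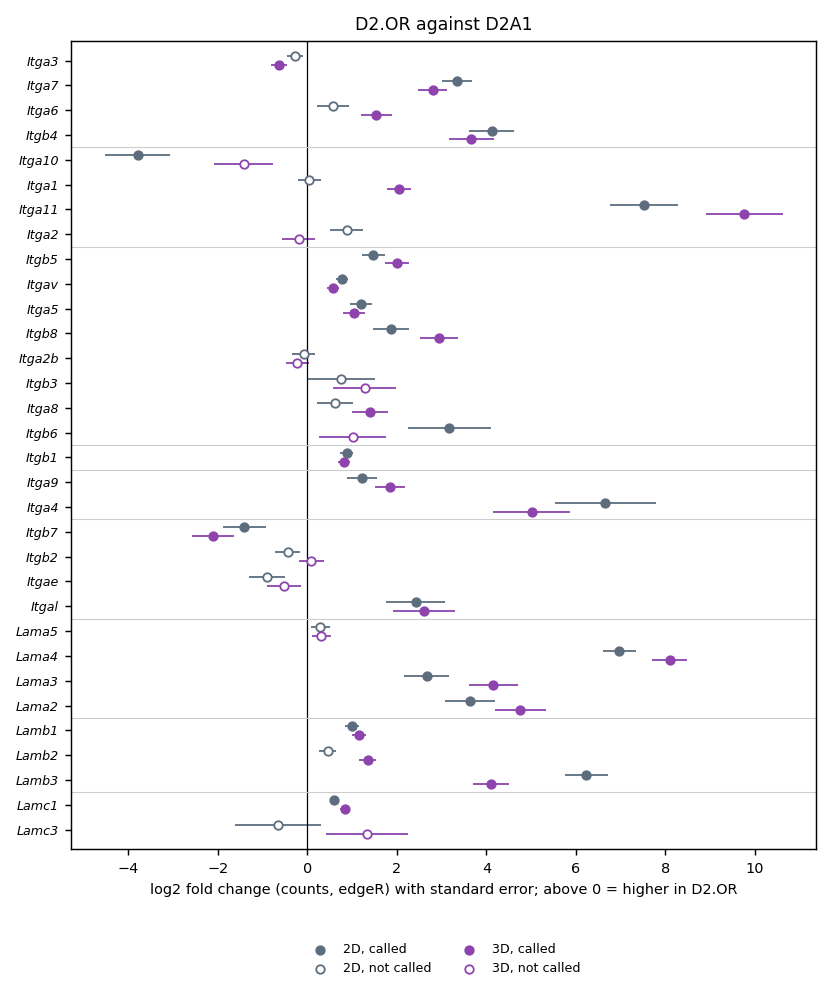
Log2 fold change of D2.OR against D2A1 (x axis, edgeR fit of the counts, bars are standard errors) for 32 of the members tested (y axis), in 2D (grey) and 3D (purple), with filled points for members that passed the test. The filled points right of 0 run from Itgav at 0.57 in 3D to Itga11 in 3D, and those left of 0 are Itga10 in 2D, Itga3 in 3D and Itgb7 in both. The Itga11 point in 3D is drawn at its fitted 9.76, which rests on 1, 3 and 0 counts in D2A1.

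Of the 4 laminin alpha chains tested, 3 passed in both cultures, beside 49.8% of all genes in 2D and 53.8% in 3D, and Lama5 passed in neither. Lama4, the alpha chain of laminins of blood vessels and other mesenchymal tissue (chr10:38965515-39110188), was at 0.34, 0.34 and 0.12 TPM in D2A1 2D and at 18.3, 45.0 and 28.4 TPM in D2.OR 2D. In 3D it was at 0.21, 0.15 and 0.11 TPM in D2A1 and at 41.3, 40.1 and 27.9 TPM in D2.OR. The groups did not overlap in either culture. In log2 units D2.OR was higher by 6.97 ± 0.37 (SE, adjusted p = 1.4e-06) in 2D and 8.10 ± 0.39 (adjusted p = 8.42e-07) in 3D. Lama4 made up 9.93% to 35.5% of the laminin alpha-chain TPM in D2.OR and 0.394% or less in D2A1.

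Lama3, the alpha chain of the epithelial laminin-332, was at 0.79, 0.10 and 0.24 TPM in D2A1 2D and at 4.53, 0.99 and 1.06 TPM in D2.OR 2D. The 3D values were 1.31, 0.07 and 0.12 TPM in D2A1 and 7.87, 3.20 and 3.31 TPM in D2.OR. Batch 1 was the highest library in each of the 4 groups, and the lines did not overlap in either culture. In the fit, D2.OR was higher by a log2 fold change of 2.67 ± 0.51 (adjusted p = 0.00233) in 2D and 4.15 ± 0.54 (adjusted p = 0.000252) in 3D. Lama2, the alpha chain of muscle laminin, was also higher in D2.OR, by a log2 fold change of 3.64 ± 0.56 in 2D (adjusted p = 0.000684) and 4.76 ± 0.57 in 3D (adjusted p = 0.000149), but it reached no more than 1.1 TPM in any library.

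Lama5, the alpha chain of laminin-511 and laminin-521, was at 85.1, 128 and 158 TPM in D2A1 2D, at 161, 125 and 123 TPM in D2.OR 2D, at 73.6, 66.8 and 68.1 TPM in D2A1 3D and at 95.7, 69.7 and 99.1 TPM in D2.OR 3D. The lines overlapped in 2D and in 3D, with log2 fold changes of 0.29 ± 0.22 (adjusted p = 0.29) and 0.31 ± 0.21 (adjusted p = 0.25). Lama1, the alpha chain of laminin-111, was listed at 0 TPM in every library. Its counts were 0 in 10 libraries and 1 in each of 2 D2.OR 2D libraries, and a count of 0 allows up to 3 counts in a library, a limit that covers counting error only.

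Of the beta chains, Lamb3, the partner of Lama3 in laminin-332, had the largest difference (chr1:193207699-193343878). It was at 0.06, 0.02 and 0.12 TPM in D2A1 2D and at 7.38, 1.38 and 2.40 TPM in D2.OR 2D. On Matrigel it was at 0.34, 0.27 and 0.18 TPM in D2A1 and at 7.41, 1.87 and 3.70 TPM in D2.OR. The lowest D2.OR library was above the highest D2A1 library in both cultures, and batch 1 was the highest D2.OR library in each. D2.OR was higher by 6.23 ± 0.48 log2 units in 2D (adjusted p = 1.38e-05) and 4.10 ± 0.40 in 3D (adjusted p = 5.02e-05). Hsd11b1 and G0s2 lie on the opposite strand within the Lamb3 locus, and whether the counting used the strand is not given in the sources used here. Both were also higher in D2.OR, Hsd11b1 at 17.3 to 59.3 TPM against 0.46 to 6.86 and G0s2 at 5.51 to 104 against 0.03 to 0.37, and their part in the Lamb3 value was not tested.

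Lamb1, the usual beta chain of laminin-411 and laminin-511, was at 107, 172 and 129 TPM in D2A1 2D and at 144, 361 and 275 TPM in D2.OR 2D. It was at 68.6, 97.3 and 89.1 TPM in D2A1 3D and at 149, 207 and 221 TPM in D2.OR 3D. The 2D groups overlapped across batches, but D2.OR was higher within each batch, and in 3D the groups did not overlap. Lamb1 was higher in D2.OR by a log2 fold change of 0.99 ± 0.16 in 2D (adjusted p = 0.000783) and 1.14 ± 0.16 in 3D (adjusted p = 0.000319). Lamc1, the gamma chain common to both trimers, was higher in D2.OR by 0.60 ± 0.10 in 2D (adjusted p = 0.00103) and 0.84 ± 0.10 in 3D (adjusted p = 0.000147) on the log2 scale, at 85.4 to 99.1 TPM in D2A1 2D against 125 to 139 TPM in D2.OR 2D. The 2D call of Lamc1 was lost without batch 2 (0.54, adjusted p = 0.054). Lamb2, the beta chain of laminin-521, passed the test in 3D (1.35 ± 0.19, adjusted p = 0.000361) and not in 2D (0.45 ± 0.19, adjusted p = 0.073).

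Read by trimer, the scarcest chain of laminin-411 was Lama4 in every library. The scarcest chain of laminin-511 was at 62.8 TPM or more in every library, and that of laminin-521 at 39.9 TPM or more. Lamc3 was at 0.27 TPM or less in 11 libraries and at 1.51 TPM in batch 1 of D2.OR 3D, and passed no test.

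Of the 4 laminin-binding members, the alpha7 and beta4 subunits passed in 2D, beside 49.8% of all genes, and all 4 passed in 3D, beside 53.8%. Itga7, best known as the laminin receptor of muscle, was at 3.85, 4.30 and 6.12 TPM in D2A1 2D and at 23.2, 61.6 and 67.8 TPM in D2.OR 2D. On Matrigel Itga7 was at 2.72, 10.8 and 8.43 TPM in D2A1 and at 20.7, 63.1 and 76.3 TPM in D2.OR. Batch 1 was the lowest library of each group, and no D2A1 library reached a D2.OR library. The fit gave a log2 fold change of 3.35 ± 0.33 in 2D (adjusted p = 5.96e-05) and 2.80 ± 0.32 in 3D (adjusted p = 0.000127).

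Itgb4 encodes the beta4 subunit, which pairs with alpha6 in hemidesmosomes, the anchors of epithelium to laminin-332. It was at 0.50, 0.67 and 1.24 TPM in D2A1 2D and at 13.4, 5.79 and 5.45 TPM in D2.OR 2D. The 3D values were 1.19, 0.28 and 0.25 TPM in D2A1 and 5.30, 3.76 and 8.16 TPM in D2.OR. The lines did not overlap, with log2 fold changes of 4.12 ± 0.50 in 2D (adjusted p = 0.00019) and 3.67 ± 0.50 in 3D (adjusted p = 0.000316).

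Itga3, the most abundant laminin-binding subunit, did not follow this direction. It was at 241, 199 and 179 TPM in D2A1 2D and at 124, 156 and 189 TPM in D2.OR 2D, with overlapping ranges. On Matrigel it was at 169.5, 201 and 179 TPM in D2A1 and at 120.0, 117 and 115 TPM in D2.OR, without overlap. The fit gave a log2 fold change of -0.28 ± 0.17 in 2D (adjusted p = 0.21) and -0.64 ± 0.17 in 3D (adjusted p = 0.0116), a call that was lost without batch 2 (-0.56, adjusted p = 0.144) or without the D2A1 3D library of batch 2 alone (-0.54, adjusted p = 0.0577). Itga6, the partner of beta4, passed in 3D (1.54 ± 0.35, adjusted p = 0.00532) and not in 2D (0.58 ± 0.35, adjusted p = 0.21). It was at 5.03 to 9.29 TPM in D2A1 and at 6.89 to 30.7 TPM in D2.OR.

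In 2D the collagen receptors held the members with the largest fitted differences in both directions, while in 3D the largest lower one was that of Itgb7. Itga11, the alpha11 subunit of fibroblast collagen receptors (chr9:62677826-62783982), was at 0.05, 0.02 and 0.01 TPM in D2A1 2D, which came from 7, 4 and 1 counts. In D2.OR 2D it was at 2.26, 5.40 and 4.32 TPM, or 482, 838 and 656 counts. In 3D the counts were 1, 3 and 0 in D2A1 and 1907, 1396 and 423 in D2.OR. The log2 fold change was 7.52 ± 0.76 in 2D (adjusted p = 6.25e-05). In 3D, with so few counts in D2A1, the pooled counts relative to library totals gave a ratio of 944 (95% exact interval 368 to 3465, counting error only), and the adjusted p was 2.62e-05.

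Itga10, the alpha10 subunit known from cartilage (chr3:96645584-96664519), was higher in D2A1 2D, at 112, 48.0 and 101 TPM, than in D2.OR 2D, at 29.5, 3.67 and 3.26 TPM. The 3D values were 109, 3.73 and 3.99 TPM in D2A1 and 24.0, 2.17 and 2.43 TPM in D2.OR. The batch 1 library was far above the others in 3 of the 4 groups, all but D2A1 2D, and D2A1 exceeded D2.OR within every batch in both cultures. D2.OR differed from D2A1 by a log2 fold change of -3.80 ± 0.73 in 2D (adjusted p = 0.00232) and -1.43 ± 0.66 in 3D (adjusted p = 0.097). Without the replicate block the 2D call was lost (-2.68, adjusted p = 0.159). Gm42957, which overlaps Itga10 on the same strand, had 437, 266 and 545 counts in D2A1 2D and 700, 18 and 64 in D2A1 3D. Both genes were thus highest in the same libraries, and how the counting divided reads between them was not tested.

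Itga1, the alpha1 subunit of receptors for collagen and for laminin (chr13:114953096-115101964), passed no test between the lines in 2D, at 2.01, 3.55 and 2.76 TPM in D2A1 and 2.09, 3.72 and 2.45 TPM in D2.OR (log2 fold change 0.04 ± 0.26, adjusted p = 0.92). In 3D it was at 2.35, 3.41 and 2.32 TPM in D2A1 and at 14.5, 12.5 and 6.95 TPM in D2.OR, without overlap (2.05 ± 0.27, adjusted p = 0.000239). Itga2 was at 0.78 TPM or less in every library and passed neither test.

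Of the RGD-binding group, 5 of 8 members passed in 2D and 5 of 8 in 3D, all of them higher in D2.OR, beside 49.8% and 53.8% of all genes in either direction. Itgb5, the beta subunit of the vitronectin receptor alphavbeta5, was at 313, 107 and 122 TPM in D2A1 2D and at 416, 432 and 382 TPM in D2.OR 2D. It was at 158, 78.1 and 62.3 TPM in D2A1 3D and at 496, 348 and 307 TPM in D2.OR 3D. Batch 1 was the highest D2A1 library in both cultures, and every D2.OR library was above the D2A1 libraries of its culture. In the fit D2.OR was higher by a log2 fold change of 1.48 ± 0.27 in 2D (adjusted p = 0.00171) and 2.00 ± 0.27 in 3D (adjusted p = 0.000289).

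Itgb8, which with alphav activates latent TGF-beta, was at 12.7, 5.97 and 5.04 TPM in D2A1 2D and at 19.0, 27.2 and 21.5 TPM in D2.OR 2D. On Matrigel it was at 5.81, 1.31 and 1.28 TPM in D2A1 and at 23.3, 20.1 and 12.4 TPM in D2.OR. The lines did not overlap within either culture, with log2 fold changes of 1.86 ± 0.41 in 2D (adjusted p = 0.00487) and 2.94 ± 0.43 in 3D (adjusted p = 0.000461). The 2D call of Itgb8 was lost without batch 2 (1.59, adjusted p = 0.062) or batch 3 (1.63, adjusted p = 0.0753). Itgav, the alpha partner of beta5 and beta8, was higher in D2.OR by 0.77 ± 0.14 in 2D and 0.57 ± 0.14 in 3D on the log2 scale, and Itga5, the fibronectin receptor subunit, by 1.20 ± 0.24 and 1.05 ± 0.24. The 2D call of Itga5 was lost without batch 2 (1.09, adjusted p = 0.0601). Itgb1, which pairs with both alphav and alpha5, was higher by 0.87 ± 0.14 in 2D (adjusted p = 0.000861) and 0.82 ± 0.14 in 3D (adjusted p = 0.00106).

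Itgb6, the epithelial partner of alphav, was near the limit of detection, with 3, 0 and 0 counts in D2A1 2D and 8, 10 and 12 in D2.OR 2D. That is a ratio of 8.80 (95% exact interval 2.74 to 45.1, counting error only), with an adjusted p of 0.0188. The call was lost without batch 3 (adjusted p = 0.168), and also without any 1 of the D2A1 2D or D2.OR 2D libraries of batches 2 and 3 (adjusted p 0.0509 to 0.0777). In 3D, with 5, 4 and 4 counts in D2A1 and 5, 13 and 7 in D2.OR, Itgb6 did not pass (adjusted p = 0.276). Itga8 gave 1.40 ± 0.41 in 3D (adjusted p = 0.017) and 0.62 ± 0.40 in 2D (adjusted p = 0.23). The 3D call was lost without batch 1 (0.79, adjusted p = 0.112) or either of its 3D libraries (0.0797 and 0.0769), without the D2A1 3D library of batch 2 (0.0535), without the replicate block (2.04, adjusted p = 0.189) and in both limma fits (0.0776 and 0.072). Itgb3 and Itga2b passed in neither culture. Itgb3 was at 0.52 to 8.79 TPM and Itga2b, the platelet alphaIIb subunit, at 3.37 to 6.16 TPM.

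The alpha4 and alpha9 subunits bind fibronectin, VCAM-1 or tenascin at other sites than RGD. Itga9 was at 0.40, 0.96 and 0.66 TPM in D2A1 2D and at 0.61, 1.27 and 0.55 TPM in D2.OR 2D, with overlap, and the fit of its counts gave a log2 fold change of 1.22 ± 0.34 in 2D (adjusted p = 0.0145) and 1.84 ± 0.34 in 3D (adjusted p = 0.00162). In 3D, D2A1 was at 0.59, 0.32 and 0.48 TPM and D2.OR at 0.34, 2.40 and 0.69 TPM, so that in TPM D2A1 was the higher line in batch 3 of 2D and batch 1 of 3D. The 2D call was lost without batch 2 (0.999, adjusted p = 0.102) or without either of its 2D libraries (adjusted p 0.0578 and 0.0765). RSEM gave Itga9 a length of between 1232 and 5064 bases depending on the library, which enters TPM and not the counts. Itga4 had 0 counts in all D2A1 2D libraries and 16, 15 and 5 in D2.OR 2D, at least 3.43-fold higher when D2A1 is set to 3 counts per library (adjusted p = 0.00253). In 3D it had 0, 0 and 1 counts in D2A1 and 18, 20 and 6 in D2.OR (ratio 44.6, 95% exact interval 7.59 to 1800, counting error only, adjusted p = 0.00243).

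The leukocyte alpha subunits were at or near 0 in both lines. Itgal, Itgam, Itgax, Itgad and Itgae, the alpha subunits of white blood cells, were at 0.28 TPM or less in every library. Ptprc, the pan-leukocyte marker CD45, was at 0.05 TPM or less, and the summed TPM of 9 leukocyte markers, 27.4 to 193 in D2A1 and 13.6 to 56.1 in D2.OR, came mainly from Cd14 and Cd68. Itgb2, the beta partner of these subunits apart from Itgae, was detected. It was at 0.32 to 1.69 TPM and passed no line comparison.

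Itgb7, the beta partner of alpha4 and alphaE, was the most abundant of this group and higher in D2A1. It was at 1.3, 6.30 and 3.55 TPM in D2A1 2D and at 0.95, 0.94 and 1.37 TPM in D2.OR 2D, and the groups overlapped through batch 1 of D2A1. The 3D values were 1.78, 6.13 and 8.64 TPM in D2A1 and 0.63, 0.87 and 2.13 TPM in D2.OR, again with overlap across batches. Within each batch D2A1 was higher. D2.OR differed by a log2 fold change of -1.41 ± 0.48 in 2D (adjusted p = 0.0338) and -2.11 ± 0.47 in 3D (adjusted p = 0.00467). The 2D call was lost without batch 2 (-0.71, adjusted p = 0.292), without batch 3 (-1.46, adjusted p = 0.119) or without any 1 of the batch 2 libraries or the D2.OR library of batch 3 in 2D (adjusted p 0.128 to 0.161).

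Itgal passed in both cultures in the direction of D2.OR (2.42 ± 0.67, adjusted p = 0.0146 in 2D and adjusted p = 0.0114 in 3D), on 3, 0 and 5 counts in D2A1 2D against 12, 13 and 15 in D2.OR 2D. In 3D, 2, 1 and 3 counts against 14, 5 and 17 gave a ratio of 6.08 (95% exact interval 2.54 to 17.7, counting error only). The Itgal call was lost without batch 2 or batch 3 in 2D (adjusted p = 0.0784 and 0.082), and without batch 1 (0.0594), batch 3 (0.107) or the D2A1 library of batch 3 (0.0512) in 3D.

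**Figure D4:**
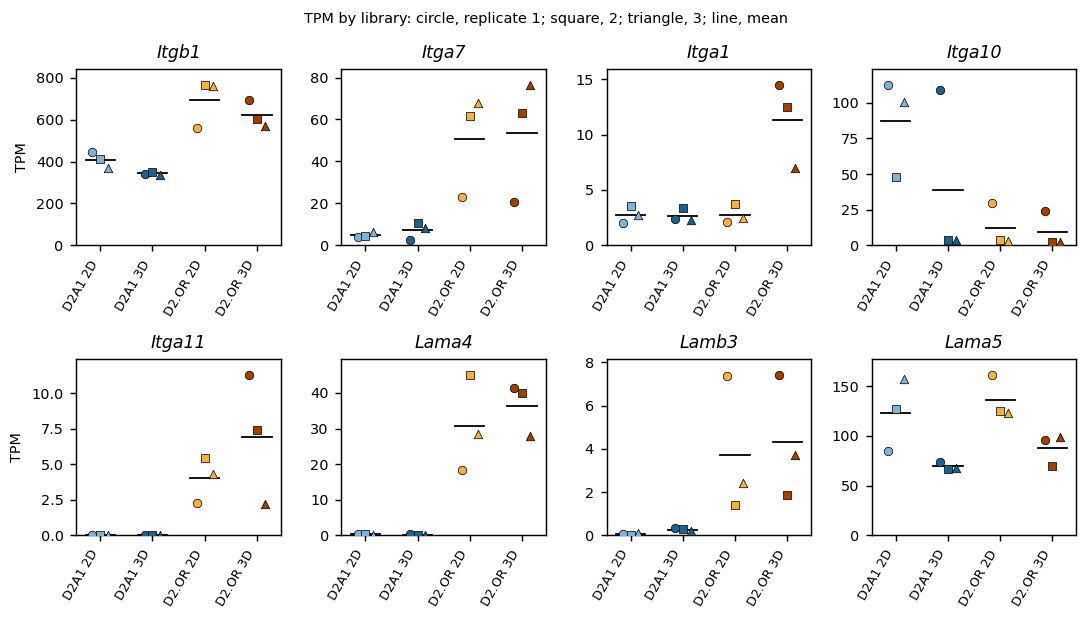
TPM (y axis, linear from 0) of 8 members in the 4 groups (x axis), with a symbol per replicate (circle 1, square 2, triangle 3) and a line at the mean of 3 libraries. Itgb1 is high in all groups, Itga11 and Lama4 sit at or near 0 in D2A1, Itga1 is raised in D2.OR 3D, and Itga10 falls apart by batch.

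Genes that work with integrins and laminins were read from lists of the same fit, where 25.4% of all genes were higher and 24.4% lower in D2.OR 2D, and 27.7% and 26.1% in 3D. Of 25 integrin activators and adhesion adaptors, 12 were higher in D2.OR 2D and 1 was lower. The lower one was Parvb, the beta-parvin of the ILK complex, at 13.7, 15.1 and 16.4 TPM in D2A1 2D and 0.14, 0.04 and 0.05 TPM in D2.OR 2D (log2 fold change -8.04 ± 0.17, adjusted p = 2.89e-08). Tln2, a talin that activates integrins, was at 6.62 to 8.35 TPM in D2A1 2D and at 46.8 to 56.5 TPM in D2.OR 2D (2.86 ± 0.23, adjusted p = 1.76e-05), and Lims1, a PINCH adaptor of the same complex, was higher by 1.48 ± 0.12 (adjusted p = 1.67e-05). In 3D the count was 15 higher and 1 lower.

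Of 4 hemidesmosome genes, Cd151 and Plec were higher and Dst lower in D2.OR 2D, and Cd151 and Plec were higher in 3D. Of 10 basement membrane partners and laminin receptors of other kinds, 6 were higher in D2.OR 2D and 7 in 3D, with 0 lower. They included Nid2, which links laminin to collagen IV, at 0.02 to 0.11 TPM in D2A1 2D and 2.52 to 8.59 TPM in D2.OR 2D. Ntn4, a netrin that binds laminin, was at 0.46 to 1.09 TPM in D2A1 2D and 29.3 to 32.2 TPM in D2.OR 2D (5.88 ± 0.29, adjusted p = 9.18e-07). A list drawn up as RGD ligands also holds Cyr61, Ctgf and Tgfb2, and its genes were not checked for the RGD sequence. Of its 11 genes tested, 7 were higher and 1, Ltbp1, lower in D2.OR 2D, and 9 higher and 1 lower in 3D. Tnc, tenascin C, was at 0.33 to 0.58 TPM in D2A1 2D and 48.8 to 141 TPM in D2.OR 2D (7.85 ± 0.51, adjusted p = 4.48e-06).

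The next comparison asked what differed between Matrigel culture and plastic within each line. In the main fit few genes passed the test, among these members as among all genes. In D2.OR, 1 of 33 members passed for 3D against 2D, against 1.62% of all genes. An unadjusted p under 0.05 was found for 8 of 33 members, beside 2967 of 16823 genes. The median log2 fold change of the members was -0.20, beside 0.00 over all genes. The member was Itga1, at 2.09, 3.72 and 2.45 TPM in 2D and at 14.5, 12.5 and 6.95 TPM in 3D, higher in 3D within each of the 3 batches (2.15 ± 0.27, adjusted p = 0.011). The sum of the epithelial markers also differed between the cultures of D2.OR without overlap, at 1165 to 1717 TPM in 2D and 423 to 877 in 3D, and its part in the culture results was not tested. In D2A1 that sum was at 205 to 297 TPM in 2D and 94.1 to 221 in 3D, with overlap. In D2A1 the same gene was at 2.01, 3.55 and 2.76 TPM in 2D and 2.35, 3.41 and 2.32 TPM in 3D (0.14 ± 0.26, adjusted p = 0.75). The Itga1 call in D2.OR was lost without batch 2 (2.32, adjusted p = 0.461), without batch 3 (2.35, adjusted p = 0.222), without the D2.OR 2D library of batch 2 (0.0669) or 3 (0.0819), or without the D2.OR 3D library of batch 2 (0.0696).

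DESeq2 called 2 members in D2.OR, Itga1 and Itga6, against 6.99% of all genes. Limma on log2(TPM + 1) called Itga1 and Lama3, against 1.57%, and edgeR without the replicate block called 0, against 0.119%. Pelo lies within Itga1 on the same strand. It had 1054, 754 and 861 counts in D2.OR 2D and 1490, 1431 and 1212 in D2.OR 3D, while Itga1 went from 684, 997 and 578 counts to 4240, 4351 and 2298.

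**Figure D5:**
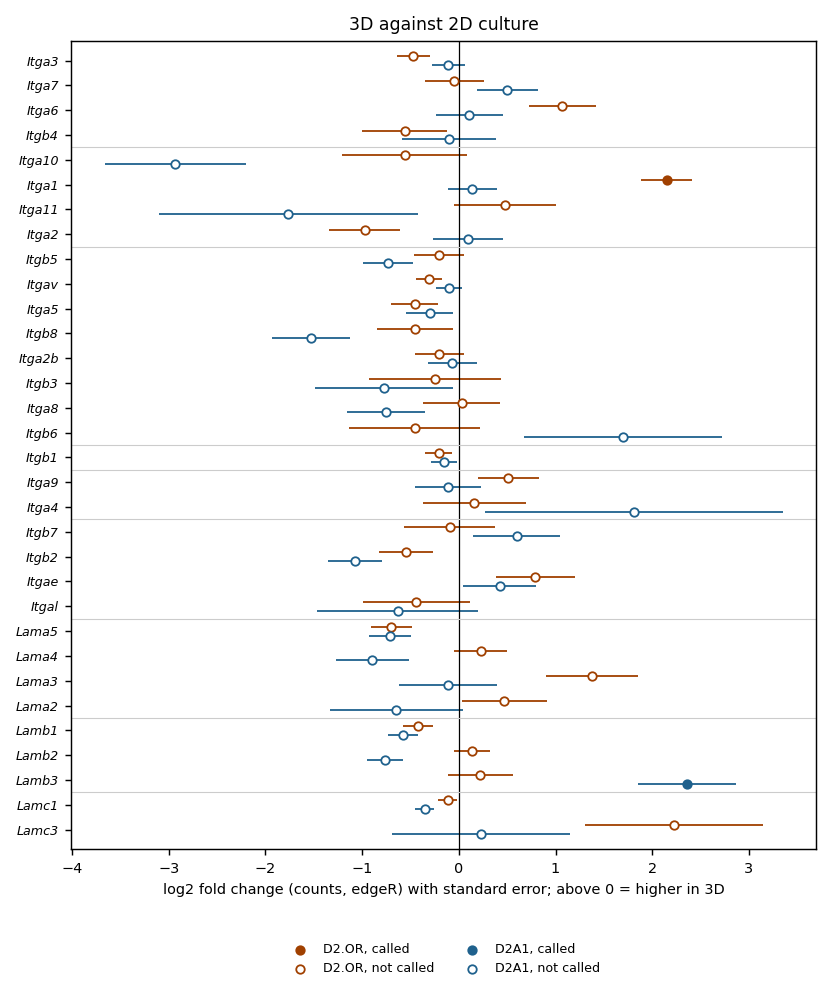
Log2 fold change of 3D against 2D (x axis, edgeR fit of the counts, bars are standard errors) for 32 of the members tested (y axis), in D2.OR (brown) and D2A1 (blue), with filled points for members that passed the test. The 2 filled points are Itga1 in D2.OR at 2.15 and Lamb3 in D2A1 at 2.36.

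Without batch 1, 9 of 34 members passed for 3D against 2D in D2.OR, against 8.38% of all genes. The 4 members higher in 3D, against 3.69% of all genes, were Itga1 (1.74), Lama3 (1.61), Itga6 (1.18) and Itgad, the last on 1 and 0 counts in 2D against 24 and 40 in 3D, for which no fold change is given. The 5 lower in 3D, against 4.7% of all genes, were Itga5 (-0.94), Itgb8 (-0.63), Itga3 (-0.62), Itgav (-0.51) and Itgb1 (-0.39). These fits rest on 2 libraries a group. With all batches, Itga6 went from 15.4, 6.89 and 10.2 TPM in D2.OR 2D to 30.7, 19.6 and 17.0 TPM in D2.OR 3D (1.07 ± 0.35, adjusted p = 0.16).

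In D2A1, 1 of 33 members passed for 3D against 2D, against 3.48% of all genes. An unadjusted p under 0.05 was found for 11 of 33 members, beside 5282 of 16823 genes. The median log2 fold change of the members was -0.11, beside 0.00 over all genes. The member was Lamb3, at 7, 4 and 6 counts in 2D and 37, 32 and 31 counts in 3D, without overlap (2.36 ± 0.51, adjusted p = 0.0458). It stayed under the D2.OR level in both cultures. Of the neighbours on the opposite strand, Hsd11b1 had 35, 321 and 143 counts in D2A1 2D and 37, 52 and 25 in D2A1 3D, and G0s2 had 1, 9 and 3 against 3, 8 and 1. The Lamb3 call was lost without batch 2 (2.01, adjusted p = 0.516), without batch 3 (2.51, adjusted p = 0.538) and without any 1 of the D2A1 libraries of batches 2 and 3 (adjusted p 0.165 to 0.204). Limma did not call Lamb3, at 0.24 on log2(TPM + 1) (adjusted p = 0.652) and 1.14 on log2(TPM + 0.1) (adjusted p = 0.12), nor did edgeR without the replicate block (2.24, adjusted p = 0.112). Lamb3 was at 0.02 to 0.34 TPM in D2A1, where the added 1 or 0.1 makes a log2 difference smaller by construction. RSEM gave it a length of between 1645 and 4867 bases, which enters TPM and not the counts. The Lamb3 call was also lost without any 1 D2.OR library other than that of batch 1 in 2D (adjusted p 0.0554 to 0.0751) in this fit, in which all groups share 1 estimate of the spread.

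Without batch 1, 13 of 34 members passed in D2A1, against 36.3% of all genes. In 3D 9 of them were lower, against 18.9%, and 4 were higher, against 17.4%. The lower ones were Lamb2 (-0.996), Lama5 (-0.93), Lamb1 (-0.55) and Lamc1 (-0.40), the chains of laminin-511 and laminin-521, and Itga10 (-4.12), Itgb8 (-1.90), Itgb2 (-1.47), Itgb5 (-0.57) and Itga5 (-0.33). The higher ones included Lamb3 (2.49), Itga7 (1.06) and Itgb6, which had 0 and 0 counts in 2D against 4 and 4 in 3D, so that no fold change is given. With all batches the same 4 laminin chains had log2 fold changes of -0.76 ± 0.19 (Lamb2, adjusted p = 0.054), -0.71 ± 0.22 (Lama5, adjusted p = 0.072), -0.57 ± 0.16 (Lamb1, adjusted p = 0.062) and -0.35 ± 0.10 (Lamc1, adjusted p = 0.064). DESeq2 with all batches called 10 members in D2A1, against 22.7% of all genes, all of them also called without batch 1. EdgeR without a filter on low counts called 5, against 3.75%, limma called 7 other than Lamb3 on log2(TPM + 1) and 7 on log2(TPM + 0.1), against 9.36% and 9.44%, and edgeR without the replicate block called 0, against 0.309%.

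Of the partner lists, Src and Pxn of the adhesion adaptors fell in D2.OR 3D, and Nedd9 and Pxn fell in D2A1 3D. Nid2 fell in D2.OR 3D by 2.11 on the log2 scale (SE 0.31, adjusted p = 0.0197). Hspg2, perlecan, fell in D2A1 3D by 1.22 (SE 0.28, adjusted p = 0.0489), and Plec rose there by 0.54 ± 0.12 (adjusted p = 0.0473). No gene of the RGD ligand list passed in either line. These genes and Ltbp1 were named because they were the ones called, after their values were seen.

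The last comparison asked whether the response to 3D differed between the lines, as an interaction of cell line and culture. By edgeR, 0 of 33 members passed, against 0.0238% of all genes. An unadjusted p under 0.05 was found for 6 of 33 members, beside 2997 of 16823 genes. DESeq2 called 4, against 6.08% of all genes, among them Itga1, Lamb2 and Lamb3, and edgeR without a filter on low counts called 1 (Itga1), against 0.322%. The smallest p was that of Itga1, whose change in 3D was larger in D2.OR than in D2A1 by 2.01 ± 0.36 on the log2 scale (adjusted p = 0.089). Lamb3 followed with -2.13 ± 0.61 (adjusted p = 0.16), where the change was larger in D2A1, and Lamb2 with 0.90 ± 0.26 (adjusted p = 0.16). Lamb2 went from 99.6, 73.3 and 96.0 to 82.1, 41.8 and 39.9 TPM in D2A1, lower in 3D in each batch, and from 158, 98.2 and 84.9 to 217, 97.0 and 99.9 TPM in D2.OR. Without batch 1, 11 of 34 members passed the interaction test, against 17.8% of all genes. Among them, the change in 3D was more positive in D2.OR for Itga1 (1.70, adjusted p = 0.00551), Lama3 (2.54, adjusted p = 0.00844), Itga10 (3.54, adjusted p = 0.00436), Itgb8 (1.26, adjusted p = 0.0112) and Lamb2 (1.07, adjusted p = 0.0109). It was more positive in D2A1 for members that included Lamb3 (-2.003, adjusted p = 0.043), Itga7, Itga3, Itga5 and Itgav.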

How the data were processed

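RNA of 12 libraries (2 mouse cell lines, 2 cultures, 3 replicates) was analysed from the processed files. The authors trimmed the reads (Trimmomatic 0.32, after FastQC 0.11.4), aligned them with STAR 2.5.3 to GRCm38 with a GENCODE annotation and quantified genes with RSEM 1.3.0. The deposited expected counts are not normalized and need not be whole, because RSEM divides reads that fit several genes, and 10.7% to 11.8% of the genes of a library were not whole. RSEM also gave the deposited TPM values, which the authors scaled by gene length and library, and the series table matched the library files (largest difference 0.0). FPKM was not used. Whether counting used the strand is not given in the sources used here.

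Expected counts were rounded and fitted in edgeR 4.0.16 (R 4.3.3) with TMM, filterByExpr (16823 of 52550 genes kept), 4 group terms and the batch as a block. The quasi-likelihood test was adjusted by Benjamini-Hochberg over all tested genes, and genes with an adjusted p under 0.05 are called. The common biological coefficient of variation was 21.2%. Fold changes against a group at 0 counts use a floor of 3 counts per library, and those against 1 to 3 counts per library use pooled counts with an exact 95% interval. The labels do not say that replicates were separate cultures. The study states for its findings in general that they rest on biological repeats, without naming these libraries. P-values therefore measure the spread between these libraries, which may be technical.

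The replicate numbers pair the libraries, since the labels give the batch. The correlation of deviations from the group means was 0.08 to 0.51 for 18 same-numbered pairs (median 0.267) and had a median of -0.195 for different numbers. Alternatives were no block, DESeq2 1.42.0 (also its size factors in edgeR), no filter, limma 3.58.1 on log2(TPM + 1) and log2(TPM + 0.1), and each batch or library left out. Full statistics are given for members called at a log2 fold change of at least 2 between the lines, those called between cultures, the 3 with the smallest interaction p and the most abundant of each ligand group. From each partner list, the 3 genes with the smallest p in the 2D line comparison could be named. Members and lists were chosen with earlier results of these data known. The scripts were tested on simulated data. For 1 member, values are not reported here and it is not drawn in the figures, but it stays in the counts.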

Additional observations from a re-analysis of the deposited data

How the results depend on the processing

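The 21 calls between the lines in 2D stayed within 1.5 times under every alternative but the fit without batch 2 (range 13 to 23 over the left-out batches and libraries), and the 23 calls in 3D under all of them (22 to 25 over the left-out batches and libraries, 21 without the replicate block and 18 in both limma fits). These are raw counts from unlike numbers of members tested, 33 in the main fit, 25 in both limma fits and 37 without the filter. The counts between cultures rest on few calls and moved: without the replicate block, which the labels' batches justify keeping, they were 0 in D2.OR and 0 in D2A1. In D2.OR the count of 1 became 2 with DESeq2 and 2 with limma on log2(TPM + 1), with 0 to 9 over the left-out batches and libraries. In D2A1 the count of 1 became 5 without the filter, 10 with DESeq2 and 7 in both limma fits, with 0 to 13. The interaction count of 0 became 1 without the filter and 4 with DESeq2, with 0 to 11. Without the block, the calls in 2D of Itga9, Itga10, Lama3 and Itgb7 and in 3D of Itga8 and Itga9 were lost, and so were both culture calls. The block changed no other member's call whose values are given, and partner genes were not compared in this way. Of 842 alternative values of 41 named results, 781 kept direction and side of the threshold, 48 lost the call, 12 gained it and 1 turned: the Lamb3 interaction was 0.00 (0.004) with limma on log2(TPM + 1). The cause of these shifts was not tested. Depth limits the members at a few counts, Itga4, Itgal, Itgb6 and the untested Lama1, Itgad, Itgax and Itgam.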
